A study of Arabidopsis thaliana with 2 samples.

Results

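The strongest binding sites of MYB3R3 in Arabidopsis seedlings were taken as the peaks with a deposited score of 70 or above, which were 265 of the 2931 peaks in the list (9.04%). The peaks were chosen by the score, a number that the authors gave to each peak, so scores are described here and not tested. Whole seedlings of the Col-0 accession with a fusion of MYB3R3 and green fluorescent protein (GFP) were sampled at 9 days after germination. They grew in liquid MS medium with 2% sucrose at 22 °C under constant light. In 1 ChIP library an anti-GFP antibody pulled down the chromatin, and 1 library of input DNA from the same line was not analysed here. The sources used here do not give the promoter of the fusion or whether the line came from 1 insertion. Because there was 1 ChIP library, there was no replicate error, and peaks and genes did not serve as replicates. Shares are given with 95% Wilson intervals that cover counting error only, and differences between strong and other peaks were not tested.

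MYB3R proteins carry 3 MYB repeats and are known in plants for acting on genes of the G2 and M phases of the cell cycle, some as activators and others as repressors. In Arabidopsis, MYB3R3 is known as one of the repressors, and it is known to act together with the retinoblastoma protein RBR1 and E2F factors in complexes related to the animal DREAM complex. A ChIP peak marks where the tagged protein, directly or through partners, was held on chromatin. It does not show whether the gene nearby is turned up or down.

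Scores of the 265 peaks ran from 70.3 to 749.6, with a median of 104.6 and quartiles of 83.4 and 145.1. They held 40.1% of the sum of all scores and 14.5% of the length covered by peaks. The distribution fell off smoothly through the threshold. The last peaks above it lay at CENP-C (70.7), ORC6 (70.4), and AT1G20720, DEL3 and PIP3 (70.3 each), and the first below it at UTR1 (69.98), AT3G55240 (69.8), BRCA1 (69.7), AT5G66052 (69.5) and AT1G49870 (69.3). Genes of cell division or repair lay on both sides of the threshold. The kinetochore protein CENP-C and the origin recognition subunit ORC6 fell inside it, and the repair gene BRCA1 fell just outside. These were picked from the genes just named, which also include PIP3, UTR1 and loci known by code.

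**Figure D1:**
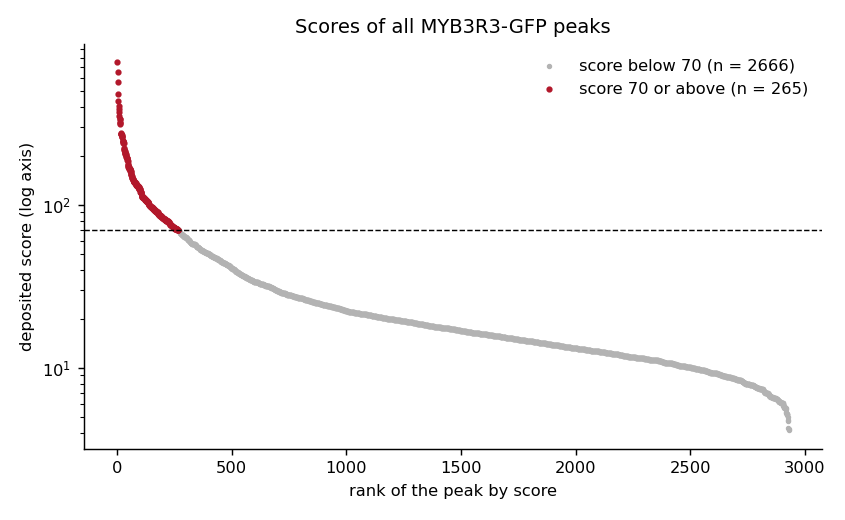
Deposited score (log axis) of each of the 2931 peaks against its rank; red points are the 265 peaks with a score of 70 or above, grey points the other 2666, and the dashed line marks 70. The curve passes the threshold without a step, and scores of the red points reach 749.6.

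The strongest peaks were wide. Their median width was 482 bp, the quartiles lay at 395 and 554 bp and the extremes at 277 and 1363 bp, against a median of 263 bp and quartiles of 222 and 337 bp in the other 2666 peaks. A width above 400 bp was found in 193 of 265 strong peaks (72.8%, 67.2 to 77.8%) and in 339 of 2666 others (12.7%, 11.5 to 14.0%). Width and score are read from the same signal, so this difference is no independent result. Within the strong peaks the median width was 439 bp for the 128 peaks with scores from 70 to 100, 491 bp for the 99 from 100 to 200, 578.5 bp for the 24 from 200 to 300 and 607.5 bp for the 14 above 300. Spearman's rho between score and width was 0.424 over the 265 peaks and 0.572 over all 2931, which all share 1 library.

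The widest peaks were not the highest ones. The widest of the strong peaks, 1363 bp, lay on chromosome 2 from 16641390 to 16642752 (TAIR10) near AT2G39865 and had a score of 238.8. Next came the peak inside AT5G45700 (1088 bp, score 338.5) and that near DDB2, a UV damage recognition protein (1078 bp, score 111.5). At the other extreme, the narrowest were the peaks near ROPGEF6, an activator of ROP GTPases (277 bp, score 89.6), AT5G15120, the plant cysteine oxidase PCO1 (278 bp, score 97.2), and PPAN (284 bp, score 80.8). The highest-scoring peak of all was 506 bp wide.

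**Figure D2:**
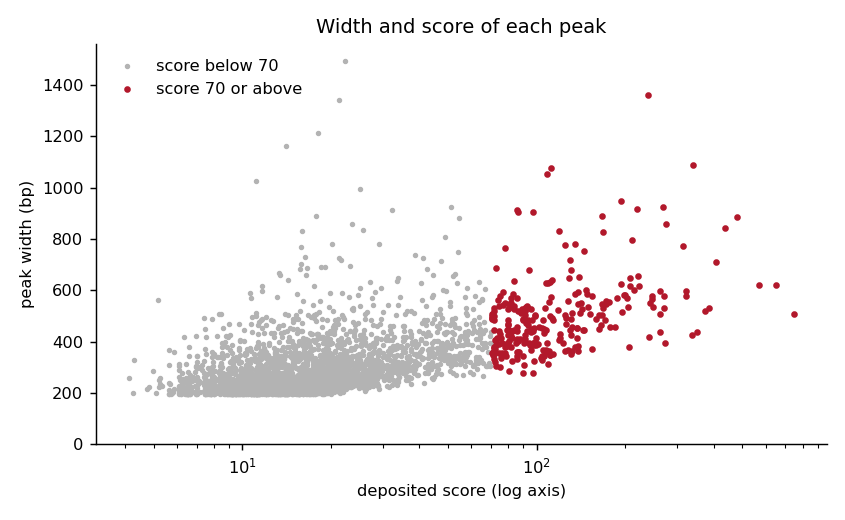
Width in bp of each peak against its deposited score (log axis); red points are peaks with a score of 70 or above, grey points the others. The red points start at 277 bp and the grey ones at 196 bp, and a few grey peaks of low score are as wide as the widest red ones.

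The strongest peaks sat at the ends of genes. Position was measured from the midpoint of a peak to the nearest end of a protein-coding gene; the direction of transcription was not used, so an end may be the 5′ or the 3′ end. The median distance was 84 bp, with quartiles of 44 and 186 bp, against 167 bp with quartiles of 68 and 475 bp in the other peaks. A distance of at most 100 bp was found for 148 strong peaks (55.8%, 49.8 to 61.7%) and 946 others (35.5%, 33.7 to 37.3%). Within 200 bp lay 203 strong peaks (76.6%, 71.1 to 81.3%) and 1473 others (55.3%, 53.4 to 57.1%). A gene end fell inside the peak itself in 212 strong peaks (80.0%, 74.8 to 84.4%) and 1188 others (44.6%, 42.7 to 46.5%). Peak width also differed between these groups, and its part in this share was not tested. Distance to an end showed no ordering by score among the 265 peaks (Spearman's rho -0.003).

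Midpoints of the strong peaks lay inside a gene in 153 cases (57.7%, 51.7 to 63.5%), close to the 55.1% (53.2 to 57.0%) of the other peaks. What differed was the distance to the nearest gene end, which for some of these midpoints was the end of a neighbour. Inside a gene, within 200 bp of any gene end, lay 123 strong peaks (46.4%, 40.5 to 52.4%) against 32.6% (30.9 to 34.4%) of others. Inside a gene but farther from every gene end lay 30 (11.3%, 8.05 to 15.7%) against 22.5% (21.0 to 24.1%). Outside genes, 92 strong peaks (34.7%) lay within 500 bp of a gene, 8 between 500 and 1000 bp and 12 (4.53%, 2.61 to 7.75%) farther away, against 30.5%, 6.19% and 8.18% (7.20 to 9.28%) of the others. The most distant lay on chromosome 1 from 17580037 to 17580571, at 4212 bp from AT1G47765, with a score of 149.6. After it came a peak 2214 bp from PIP3, a plasma membrane aquaporin (131.75), and 1 at 1719 bp from MSS3 (138.4).

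**Figure D3:**
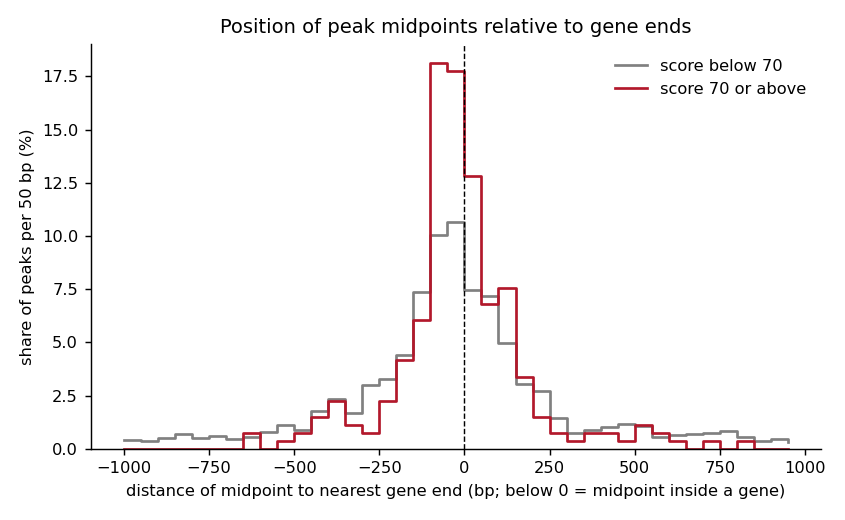
Share of peaks per 50 bp of distance from the midpoint to the nearest gene end, with negative values for midpoints inside a gene, for peaks with a score of 70 or above (red) and below 70 (grey). Both curves peak just inside the gene end; the red one is higher there and lower in the flanks, with a median distance of 84 bp against 167 bp. Distances beyond 1000 bp are not drawn.

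Counted from the edges of the peak rather than its midpoint, each strong peak had at most 2 protein-coding genes within 500 bp. There were 2 such genes for 119 peaks (44.9%, 39.0 to 50.9%), 1 for 133 and none for 13. Among the other peaks 33.2% (31.4 to 35.0%) had 2 or more. A wider peak reaches farther by this count, and the part of width in this difference was not tested. Of these 119 peaks, 45 had their midpoint between genes and 74 inside one. In 10 cases the midpoint lay in another gene than the one with the nearest end, and several of these hosts are cell cycle genes. The peak on chromosome 2 from 12689156 to 12689750 (score 322.3) lay in CDC6, which loads the replicative helicase at origins. On chromosome 4, the peak from 901090 to 901706 (222.1) lay in PRL, which encodes the helicase subunit MCM7. SYN1, a meiotic cohesin subunit, held a peak on chromosome 5 from 1624142 to 1625087 (193.2). AUR2, an Aurora kinase, and ETG1, a replisome factor, held peaks with scores of 93.5 and 73.3, and JASON, known for its part in meiosis of pollen, held 1 of 246.2. The peak of 247.8 on chromosome 2 from 11913104 to 11913636 had its midpoint in CKS2, a subunit of cyclin-dependent kinases (CDKs), and in its neighbour AT2G27980 at once.

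All 5 chromosomes carried strong peaks, 61 on chromosome 1, 35 on 2, 58 on 3, 41 on 4 and 70 on 5. They made up between 7.71% (6.05 to 9.78%, chromosome 1) and 10.1% (8.05 to 12.5%, chromosome 5) of the peaks of a chromosome, with overlapping intervals. The median distance to the next strong peak was 133100 bp, a count that uses only the 265 strong peaks. To the next peak of any score the median was 8636 bp, against 8875 bp for the other peaks. A peak of any score lay within 5000 bp of 93 strong peaks (35.1%) and of 35.1% of the others. Another strong peak within 5000 bp was found for 14 of the 265, in 7 pairs, of which 6 were on chromosome 4. TCX2, a CXC-domain protein of the DREAM-related complexes, was the nearest gene to a pair of strong peaks 1427 bp apart, with scores of 261.8 (chromosome 4, 8486219 to 8486657) and 118.9 (8484810 to 8485213). The stronger of them lay 1462 bp from the gene, with no gene within 500 bp, and the weaker one lay 35 bp from it. PIP3 was the other gene nearest to 2 strong peaks (131.75 and 70.3, 4999 bp apart). The remaining pairs had different nearest genes, such as CYCB2;2, a B-type cyclin (92.8), and AT4G35610 (74.8), whose peaks lay 1093 bp apart. In all, 25 of the 263 nearest genes were nearest to 2 or more peaks of any score, and apart from TCX2 and PIP3 their second peak scored at most 35.2 (BRG3). CYCD4;1, for example, had 273.5 and 21.3, and AT5G40460 had 749.6 and 21.75.

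The 30 highest peaks were led by genes for which the gene table gives a locus code and no name. Roles were not assigned to such genes here, which does not mean that they have no known role. The highest score, 749.6, lay outside genes at 126 bp from AT5G40460 (chromosome 5, 16201764 to 16202269). AT2G28620 had 652.0, and CYCA1;1, an A-type cyclin, had 568.1 with its peak midpoint 6 bp inside the gene end (chromosome 1, 16777037 to 16777656). Scores then fell from 479.3 to 338.5 over AT3G57060, AT5G54970, AT1G72250, AT3G12870, AT1G14260, AT4G38062 and AT5G45700. UKL2, a uridine kinase-like gene, was next at 337.3, but its end lay 835 bp from the midpoint. AT2G29679 (the neighbour of CDC6), AT2G47500 (at 1423 bp) and LTO1, a thiol oxidoreductase of the chloroplast, closed the range above 300, with 322.3, 320.45 and 314.9.

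Ranks 15 to 30 held more genes with a name in the gene table. SMR4 (AT5G02220), a SIAMESE-related inhibitor of CDKs, had 274.9 (chromosome 5, 441914 to 442773), and CYCD4;1, a D-type cyclin, had 273.5 (chromosome 5, 26141068 to 26141462). BARD1, a partner of BRCA1 in DNA repair, had 270.7 (chromosome 1, 1036152 to 1036730). RBR1 had 263.0 (chromosome 3, 3918926 to 3919520), and topoisomerase II (TOPII), which untangles sister DNA, had 262.0 (chromosome 3, 8624457 to 8624962). The GATA17-LIKE gene AT4G16141 had 245.85, the metal transporter gene NRAMP5 240.9 and COG0212 221.7. NIH, beside JASON, and STP7, beside PRL, had the nearest ends of the peaks of 246.2 and 222.1. AT3G23740, AT3G51280, AT2G27980, AT4G14310 and AT2G39865, known by code, lay between 271.6 and 238.8. With TCX2, 1462 bp from its peak of 261.8, 14 of the 30 nearest genes had a symbol or a descriptive name. The midpoint lay within 200 bp of a gene end in 23 of the 30 peaks, and 25 spanned one.

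The role of the nearest gene was then taken from its symbol or descriptive name in the table. By this, 77 of the 265 strong peaks (29.1%, 23.9 to 34.8%) were nearest to genes in 8 roles of cell division, 12 to other regulators of transcription and 60 to other named genes. The nearest gene of 116 peaks (43.8%, 37.9 to 49.8%) had a locus code alone. Roles went by the nearest end, so peaks inside CDC6, PRL, CKS2, JASON, SYN1, AUR2 and ETG1 are not among the 77. Among the other named genes, EMB2795 is one of the listed cohesin, condensin and SMC loci (below). PPK1 (97.1) is one of the listed G2/M and mitosis loci. The 77 is therefore a lower count of division genes. Locus codes alone were most frequent at the top, in 11 of the 14 peaks above 300 (78.6%, 52.4 to 92.4%). Below that there was no steady order, with 37.5% from 200 to 300, 46.5% from 100 to 200 and 39.1% from 70 to 100. Roles were assigned after the peaks were known, and only to genes nearest to strong peaks. No share over the other peaks or over all genes stands beside the role counts, so counts and scores by role are a description.

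**Figure D4:**
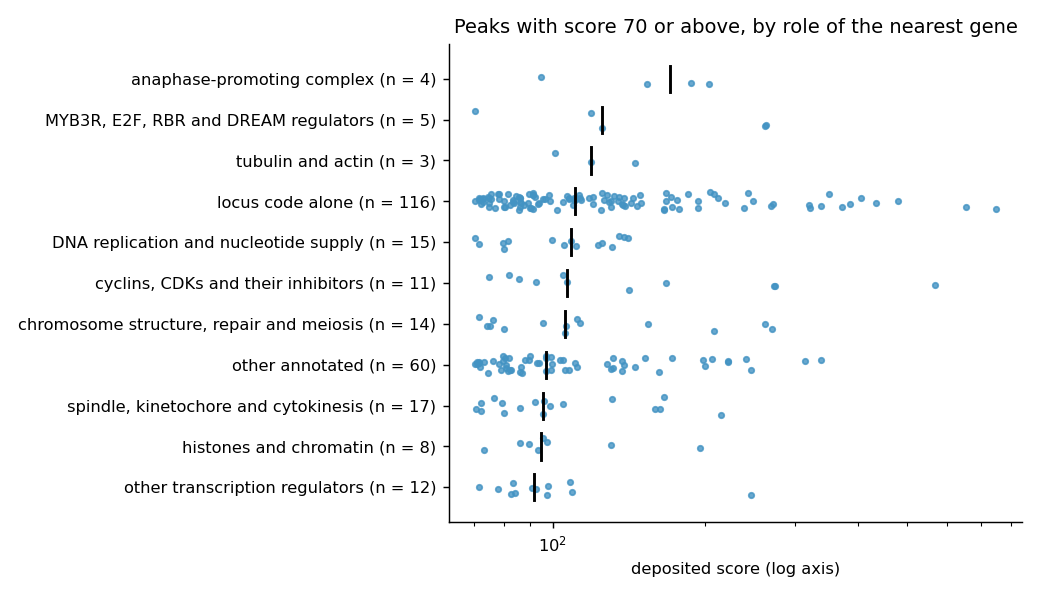
Deposited score (log axis) of each of the 265 peaks with a score of 70 or above, by role of the gene with the nearest end; points are peaks, spread vertically for legibility, and black bars are medians. Roles overlap over most of their range, and the highest points lie among genes with a locus code alone, up to 749.6.

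Genes of the CDK engine held 11 strong peaks, with a median score of 106.6. Beside CYCA1;1, CYCD4;1 and SMR4, these were CYCD1;1 (167.4), CYCD4;2 (106.6), the B-type cyclins CYCB2;2 (92.8), CYC1BAT, which is CYCB1;2 (85.7), CYCB1;4 (82.0) and CYCB2;4 (74.7), the mitotic kinase CDKB1;1 (104.6), and WEE1, a kinase that restrains CDKs (141.4). Among genes around the anaphase-promoting complex, which marks mitotic cyclins for destruction, 4 had strong peaks. UVI4 (203.0; chromosome 2, 17603447 to 17604014) and UVI4-LIKE (187.7; chromosome 3, 21425925 to 21426493) encode its inhibitors, CDC20.1 (94.6) an activator, and UBC20 (153.7) a ubiquitin-conjugating enzyme.

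Genes of the spindle, kinetochore and cell plate held 17, with a median score of 95.7. TPX2, which nucleates spindle microtubules, had the highest (214.8; chromosome 1, 951541 to 952139), followed by Haspin, a kinase of histone H3 in mitosis (165.8), the microtubule bundler MAP65-4 (162.5), SYP111, which is the cell plate syntaxin KNOLLE (159.2), and the phragmoplast motor KINESIN-12B (130.9). Further down came CSLD5, a cellulose synthase-like protein (104.6), the kinesins ATK5 (98.8), HIK (95.7), ATK1 (92.1) and POK2 (72.1), CALS1, a callose synthase (95.9), and ATN, which is the division-site protein TANGLED (86.1). Kinases were represented by AUR1 (79.3) and NP3 (76.75), and microtubule or kinetochore proteins by PLE, which is MAP65-3 (80.05), EB1C (72.3) and CENP-C (70.7). Midpoints lay close to the ends of these genes, at a median of 41 bp. Of the tubulin and actin genes, TUA2 (145.05), TUB7 (119.2) and ACT7 (100.9) had strong peaks.

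DNA replication and nucleotide supply accounted for 15 strong peaks with scores from 70.4 to 140.6. RNR1, the large subunit of ribonucleotide reductase, led with 140.6 and TSO2, a small subunit, had 80.3. The single-strand binding subunits RPA70B, RPA3A (AT3G52630) and RPA70D had 138.1, 135.35 and 79.7. At the fork, PCNA2, the sliding clamp, had 130.9, ICU2, which encodes the DNA polymerase alpha catalytic subunit, 122.65, ATIM, the TIMELESS protein, 99.7, and DPB2, a subunit of DNA polymerase epsilon, 71.6. Origin licensing and helicase genes were MCM6 (124.9), CDC45 (111.3), ORC1B (108.4), MCM2 (105.5), CDT1A (81.7) and ORC6 (70.4).

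Chromosome structure, repair and meiosis gave 14 strong peaks. Behind BARD1 and TOPII stood ASY3, a protein of the meiotic chromosome axis (208.2), and the recombination genes BRCA2(IV) (154.0) and BRCA2B (95.6). The condensin subunit gene ATSMC2 had 113.2, the DNA repair genes DDB2, MSH6 and PHR1, a photolyase, had 111.5, 106.2 and 105.7, and the meiotic regulator MMD1 had 80.2. MIM, which is SMC6B (76.1), BIN4, a factor of endoreduplication (75.2), ZYP1a, a protein of the synaptonemal complex (74.1), and the cohesin subunit SYN3 (71.5) lay near the threshold. Histone and chromatin genes held 8: the chromatin assembly subunit FAS1 (195.3; chromosome 1, 24323872 to 24324385), the maintenance DNA methyltransferase MET1 (130.5), HTA11, a histone H2A (97.45), the HMG proteins HMGB3 (95.75), HMGB4 (93.6) and HMGA (86.0), the histone H3.1 gene AT5G10390 (89.8) and MSI2 (73.0).

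Regulators related to MYB3R3 held 5 strong peaks at 4 genes. Those were RBR1 (263.0), TCX2 with 118.9 at 35 bp and 261.8 at 1462 bp, MYB3R-3 itself (124.9; chromosome 3, 2878852 to 2879626), and the atypical E2F gene DEL3 (70.3). Whether the signal at MYB3R-3 came from the endogenous gene or from the transgene cannot be told apart in these data. The other MYB3R genes with a peak within 500 bp had weaker ones, at 32.8 for MYB3R-4, 25.02 for PC-MYB1, which is MYB3R1, and 20.7 for MYB3R-5.

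Other regulators of transcription held 12 strong peaks, with a median score of 91.9 and a median distance of 168.5 bp to the gene end. NAC044 (97.6) and NAC085 (90.9), NAC factors known for arrest of the cell cycle in G2 after DNA damage, both had one. So did MYB88, a regulator of the last divisions of the stomatal lineage (82.7), the corepressor TPR3 (77.9) and NF-YB10 (71.6). The ethylene response factor gene ERF5 held a peak (108.3) inside it, 613 bp from the nearest gene end. The MADS-box gene AGL42 (109.1) and HB18 (98.0) were nearest to peaks 1646 and 1125 bp away, with no gene within 500 bp. HRA1 (AT3G10040), an attenuator of the hypoxia response, had 84.1. Some of the 60 other named genes are given as examples, and their kinds were not counted over other peaks or all genes. From hormone and stress responses came the F-box genes FBS1 (206.5) and FBS4 (197.8) and EDS16, an enzyme of salicylic acid synthesis (152.3). The E3 ligase PUB19 (110.7) and the ethylene receptor ETR2 (86.6) also belong there. The peak assigned to EDS16 lay 1285 bp from its ends, inside the gene. Cell wall genes were GSL12, a callose synthase (136.9), AGP1 (107.8), EXPB3 (93.25) and FLA10 (90.2).

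Several sets of closely related genes appeared together among the strongest peaks; these sets were picked after the values were seen. Both GATA17 genes (245.85 and 83.5), both BRCA2 genes, both UVI4 genes, and NAC044 and NAC085 had strong peaks. In the FBS family, FBS1 and FBS4 had 206.5 and 197.8, while FBS2 and FBS3 had 7.46 and 6.99. Of 7 SMAX1-like genes, SMXL5 (AT5G57130) had 172.1, SMXL4 (AT4G29920) 96.85 and another, AT4G30350, 20.7, and 4 had no peak within 500 bp. PERK13 (128.15) and PERK12 (71.9) were the PERK receptor kinase genes with a peak, out of 14. Of 14 ROPGEF genes, ROPGEF1 (103.6) and ROPGEF6 (89.6) had strong peaks, 3 had only weaker ones within 500 bp and 9 had none. Subunits of 1 complex also differed: among the MCM genes, PRL (MCM7) had 222.1, MCM6 124.9, MCM2 105.5, MCM5 69.2, MCM3 44.1 and MCM4 15.6. ORC1B had 108.4 and its paralog ORC1A 29.25.

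Lists of genes drawn up from general knowledge showed how much of each pathway carried a strong peak. Loci to which the gene table gives no matching name were left out of the lists. A strong peak was nearest to 263 of 27444 protein-coding genes (0.958%) and within 500 bp of 370 (1.35%). Of 24 genes of cytokinesis and mitotic kinesins, 10 were nearest to a strong peak (41.7%, 24.5 to 61.2%), as were 12 of 35 genes of DNA replication and S phase (34.3%, 20.8 to 50.8%) and 11 of 37 of G2/M and mitosis (29.7%, 17.5 to 45.8%). The counts were 4 of 17 for DNA repair, 3 of 15 for cohesin, condensin and SMC genes, 4 of 22 for the MYB3R, E2F, RBR and DREAM regulators, 4 of 22 for D-type cyclins and CDK inhibitors, and 3 of 23 for tubulin and actin. Over these 8 lists, 51 of 195 genes were nearest to a strong peak (26.2%, 20.5 to 32.7%). A peak of any score was nearest to 119 of the 195, against 2658 of all 27444 genes (9.69%). The 20 loci left out bear on these counts, since 8 of them were nearest to a strong peak, among them AT5G40460, AT2G28620 and AT3G57060 with 3 of the 4 highest scores. With all listed loci the counts were 59 of 215 over the 8 lists (27.4%, 21.9 to 33.8%), 13 of 29 for cytokinesis, 5 of 21 for cohesin, condensin and SMC genes, and 5 of 25 for D-type cyclins and CDK inhibitors. None of 18 genes of the photosystem antenna and Rubisco was nearest to a strong peak, which, taken as 3 counts of the total, allows a share of up to 16.7%; 5 were nearest to a weaker peak. These lists were chosen with earlier results known, and the counts are a description.

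The lists differed in how the genes with a peak divided between strong and weak ones. Of all genes, 11.9% lay within 500 bp of any peak, and 370 of these 3278 were within 500 bp of a strong one (11.3%). For cytokinesis and mitotic kinesins this was 10 of 15 and for DNA replication 15 of 29. For the MYB3R, E2F, RBR and DREAM regulators it was 4 of 17, so 13 of these genes had weak peaks alone, such as ALY1 (49.6), E2FC (ATE2F2 in the table, 31.97) and E2FA (E2F3 in the table, 18.8). For CDK inhibitors and D-type cyclins it was 4 of 7, and 15 of the 22 genes, including the plant inhibitor SIM, had no peak within 500 bp. The listed loci without a name are not in this count. Of them, 1 was nearest to a strong peak: AT5G40460, with the highest score of all peaks, 749.6. Of the 18 photosystem and Rubisco genes, 8 lay within 500 bp of a peak of any score, also a larger share than the 11.9% of all genes. All 8 had weak peaks, the highest 33.6, within 500 bp of LHCB6. CYCB1;1, a widely used marker of dividing cells, had 16.8.

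**Figure D5:**
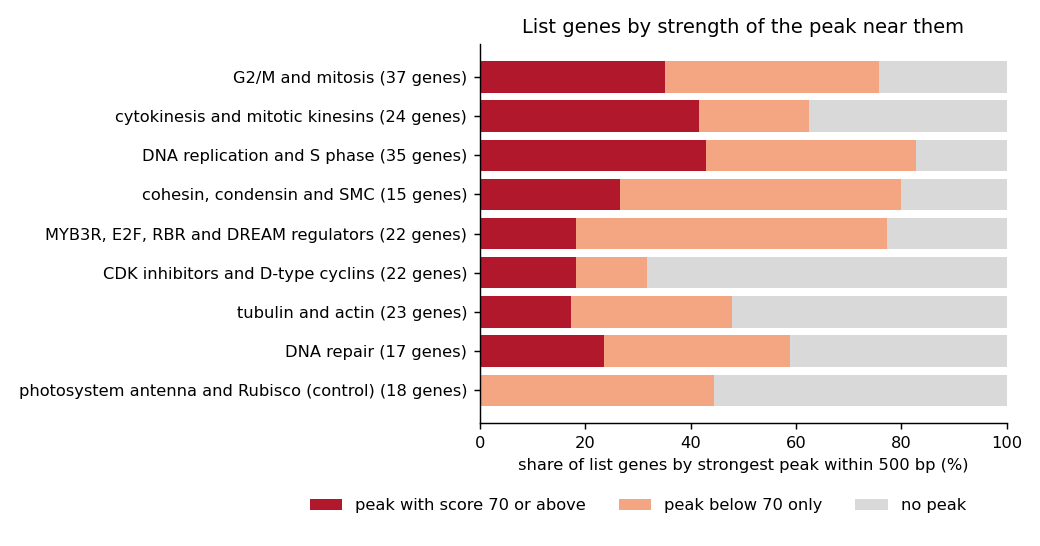
Share of the genes of each list, in percent, by the strongest peak within 500 bp of the gene: score 70 or above (dark red), below 70 only (light red) or no peak (grey). The dark part is widest for DNA replication (15 of 35 genes) and cytokinesis (10 of 24), and it is missing in the photosystem antenna and Rubisco list (0 of 18).

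A search for words in the names of the gene table, also chosen with earlier results known, gave counts over all genes. Words for kinesins, cyclins, tubulin and microtubules, histones and chromatin, DNA replication, chromosome structure, and DNA repair were found in the names of 41 of the 263 genes nearest to strong peaks (15.6%, 11.7 to 20.5%). They were found in 100 of the 2395 genes nearest to other peaks alone (4.18%, 3.44 to 5.05%) and in 342 of all 27444 protein-coding genes (1.25%, 1.12 to 1.38%). Words for replication were in 10 of the 263 names (3.80%) against 0.752% of the genes nearest to other peaks, words for cyclins in 9 (3.42%) against 0.919%, and words for kinesins in 5 (1.90%) against 0.251%. Words for DNA repair were in 1 (0.38%) against 0.376%. They were in the names of 29 of all 27444 genes. Of the 17 listed repair genes, 4 were nearest to a strong peak, so these words missed most of those 4. Words for protein kinases were in 10 (3.80%) against 2.96%, and words for transcription factors in 6 (2.28%) against 3.51%. A symbol of any kind was present for 51.7% (45.7 to 57.7%) of the genes nearest to strong peaks and 49.4% (47.4 to 51.4%) of those nearest to other peaks, and for 37.8% (37.2 to 38.4%) of all protein-coding genes. Naming therefore differed between the genes near peaks and all genes, and its part in the comparison with all genes was not tested.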

How the data were processed

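The deposited file was a peak list of 1 ChIP library. The build TAIR10 and the tools MACS2 (no version), SAMtools 0.1.18 and Bowtie 0.12.7 are named, per the submitters' processing notes. The score deposited by the authors for each peak has no formula in the sources used here, and read depth is unknown. Starts were read as 0-based BED values and are printed 1-based; start and end are the other deposited values.

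Names and positions of 27444 protein-coding genes came from RefSeq's TAIR10.1 table, whose coordinates are not printed. As a check of the builds, 89.8% of strong peaks lay within 500 bp of a gene end, against a median of 42.0% after shifts of 4000 bp or more. The table was used without strand or sequence, so distances are to gene ends in place of transcription starts, and exons, introns, untranslated regions and motifs were not analysed. Keywords were searched in symbols and synonyms.

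Members, lists and roles were chosen with earlier results of these data known. Of 233 list genes, 20 whose name the table did not give were left out, 8 of them nearest to a strong peak. Named were the genes nearest to the 30 highest peaks, up to 8 top genes per list, the 5 peaks on each side of the threshold, the 3 widest, narrowest and most distant peaks, genes with 2 strong peaks and MYB3R3; others were named after their values were seen. Alternatives were thresholds of 50 and 100, overlap of 1 bp, peak edges, all genes within 500 bp of the peak's edges and, added after the data were seen, all listed loci. The assignment was tested on simulated data. Figures were drawn with matplotlib 3.10.9, and SciPy 1.17.1, pandas 2.3.3 and NumPy 2.4.6 ran under Python 3.11.15.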

Additional observations from a re-analysis of the deposited data

How the results depend on the processing

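With score thresholds of 50 and 100 in place of 70, the number of peaks was 398 and 137 and the median width 441.5 and 524 bp, which follows from the relation of width and score. The share of midpoints inside a gene (57.7%) and within 200 bp of a gene end (76.6%) stayed within their intervals at both thresholds. By any overlap of 1 bp with a gene in place of the midpoint, the share in genes was 88.7%, and from the edge of the peak the share within 200 bp was 88.3%; both rise by construction. The 51 list genes became 32 at a threshold of 100, which uses fewer peaks, and stayed within 1.5 times otherwise. The keyword share over all these words together stayed within its interval. Single classes moved at a threshold of 100, with 136 nearest genes. Words for kinesins, histones and chromosome structure fell to 0.735%, 0.735% and 0%. Those for replication, cyclins, tubulin and DNA repair rose to 5.15%, 3.68%, 2.94% and 0.735%. Of 36 alternatives for single lists, 31 stayed within 1.5 times, of which 4 are counts of 0. The other 5 were G2/M and mitosis (5 against 11) and cytokinesis (4 against 10) at a threshold of 100, and cohesin, condensin and SMC genes (3), which gave 5 at 50, 1 at 100 and 5 with all listed loci, an alternative chosen after seeing the data. The 2 motif alternatives were not run. No paired analysis was possible because the only ChIP sample has no partner, and no library could be left out either. Read depth is unknown, so weak binding below the authors' threshold was not detectable.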
